A study of Mus musculus with 64 samples.

Results

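Htr2a and Htr2c, the genes of the serotonin receptors 5-HT2A and 5-HT2C, were followed through bulk RNA sequencing of the frontal cortex and hypothalamus of mice given psilocybin or saline. Both genes were chosen by name, as 2 of the 55401 genes in the count table, and both passed the filter on low counts. Their transcripts had opposite regional levels: Htr2a was 4.02-fold higher in frontal cortex and Htr2c was 5.39-fold higher in hypothalamus, in each case in the same direction in 30 of 30 mice with both tissues. No difference between psilocybin and saline passed the test for either gene at 3 h or at 4 weeks. The balance between the receptors in the hypothalamus of saline mice did differ between harvests, with relatively more Htr2a at 3 h than at 4 weeks. In psilocybin mice this difference was smaller and did not pass, and whether saline and psilocybin mice differ in it was not tested. Htr2a alone did not pass between harvests in the main fit, and the harvests also differ in the age of the mice.

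Both receptors belong to the 5-HT2 class, whose members couple mainly to G proteins of the Gq family and through them activate phospholipase C beta, release calcium through IP3 receptors and activate protein kinase C. The 5-HT2A receptor is abundant on cortical pyramidal neurons, and its activation by psilocin, the active metabolite of psilocybin, gives the head-twitch response in mice and the psychedelic effect in humans. The 5-HT2C receptor is found in many brain areas, is known for its part in appetite control on hypothalamic neurons, and is strongly expressed in choroid plexus. Its pre-mRNA is edited by adenosine deaminases, which changes the coupling of the receptor. Counts per gene show the amount of transcript and carry no information on editing, splicing or receptor protein.

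The study was about psilocybin in feeding and energy balance, and it sequenced these tissues to explore transcription after a psychoactive dose. Chow-fed, group-housed male C57BL/6J mice, 10 weeks old at the start, were sham injected with saline on the 3 days beforehand, as the study's general methods give it. They then received 1 dose into the peritoneum, psilocybin at 3 mg/kg or isotonic saline, and were killed 3 h or 4 weeks later, 4 h after light onset. Each of the 32 mice gave whole hypothalamus and a cortical piece that the sample labels call frontal cortex and the protocol prefrontal cortex, which makes 8 groups of 8 libraries. The 3 h and 4 week groups therefore differ in the time since injection and in the age of the mice at harvest. Every group was male, of 1 strain and injected, and no uninjected mice were analysed here, so saline groups of the same harvest served as controls.

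Of 64 libraries, 62 held at least 1000000 counted reads, with totals from 8061033 to 70361839. The libraries left out were saline replicate 2 of the hypothalamus at 3 h and psilocybin replicate 3 of the frontal cortex at 4 weeks, so that both groups had n = 7. RNA was extracted in 4 pools, A and B of hypothalamus (cages 1 to 4 and 5 to 8) and C and D of frontal cortex (the same cages in the same order), and region and extraction pool cannot be told apart. Same-numbered libraries of a region came from different mice of 1 cage. Defining markers followed the labels, apart from 1 of the 12 genes of the hypothalamic list. Of that list, 11 were lower in frontal cortex and 1 was higher (edgeR), where 76.2% of all tested genes passed. The summed CPM (counts per 1000000 counted reads, scaled by TMM, edgeR's normalization factors) of 10 genes of cortical excitatory neurons lay between 1747 and 2457 in frontal cortex and between 283 and 427 in hypothalamus, and Nkx2-1, a hypothalamic transcription factor, had a median of 0.117 CPM in frontal cortex and 14.1 CPM in hypothalamus. In a fit with quality weights, psilocybin replicate 5 of the hypothalamus at 4 weeks had a weight of 0.0276, with the next lowest weight of that region at 0.649, and psilocybin replicate 7 of the frontal cortex at 3 h had 0.120, with the next lowest at 0.275. Where leaving out one of these libraries moved a psilocybin, harvest, interaction or pool value by over 1.5 times, the value without it stands beside the result.

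Htr2a (ENSMUSG00000034997.5) lies on the plus strand of chromosome 14 from 74640840 to 74709494 in GRCm38, has 5606 exonic bases in the count table and overlaps no other gene there. Htr2c (ENSMUSG00000041380.13) lies on the plus strand of the X chromosome from 146962513 to 147197274 and has 9328 exonic bases. Its span holds 8 small RNA genes on the same strand, among them Mir448, Mir764, Mir1298, Mir1912, Mir1264 and Snora35, which together had 30 counts in the 62 libraries against 76615 for Htr2c. The third gene of the class, Htr2b, had 277 counts in all, did not pass the filter and was not tested. It overlaps Psmd1 on the opposite strand.

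The first comparison was between the regions. In the 31 frontal cortex libraries, Htr2a lay between 37.3 and 95.03 CPM with a median of 60.1 CPM. In the 31 hypothalamus libraries it lay between 5.67 and 23.6 CPM with a median of 15.5 CPM. The regions did not overlap. Within a mouse, frontal cortex held from 2.08 to 10.4 times as much Htr2a as hypothalamus, with a median of 4.01. Averaged over the 4 combinations of treatment and harvest, frontal cortex minus hypothalamus was 2.01 on the log2 scale (SE 0.0838, adjusted p = 2.41e-30, edgeR's quasi-likelihood test, adjusted by Benjamini-Hochberg over all 18971 tested genes), a 4.02-fold difference with an approximate 95% interval from 3.58 to 4.52.

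Htr2c had the reverse order. Its levels lay between 4.57 and 58.6 CPM in frontal cortex (median 18.5) and between 36.4 and 135.9 CPM in hypothalamus (median 112.5). The ranges overlapped through 4 libraries, all of the 4 week groups. In frontal cortex these were psilocybin replicate 6 with 58.6 CPM and saline replicates 6 and 7 with 54.1 and 38.3 CPM, and in hypothalamus psilocybin replicate 5 with 36.4 CPM, where the next lowest library of that tissue had 92.4 CPM. Within a mouse, hypothalamus held from 2.02 to 23.0 times as much Htr2c as frontal cortex, with a median of 6.03. The fitted difference, frontal cortex minus hypothalamus, was -2.43 on the log2 scale (SE 0.138, adjusted p = 4.63e-23, edgeR), which makes hypothalamus 5.39-fold higher with an approximate 95% interval from 4.45 to 6.53. In this comparison 76.2% of all tested genes passed the same test, so that passing it is common and the sizes carry the description. Without psilocybin replicate 5 of the hypothalamus at 4 weeks the log2 differences were 1.98 for Htr2a and -2.46 for Htr2c, and without psilocybin replicate 7 of the frontal cortex at 3 h they were 2.03 and -2.39.

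**Figure D1:**
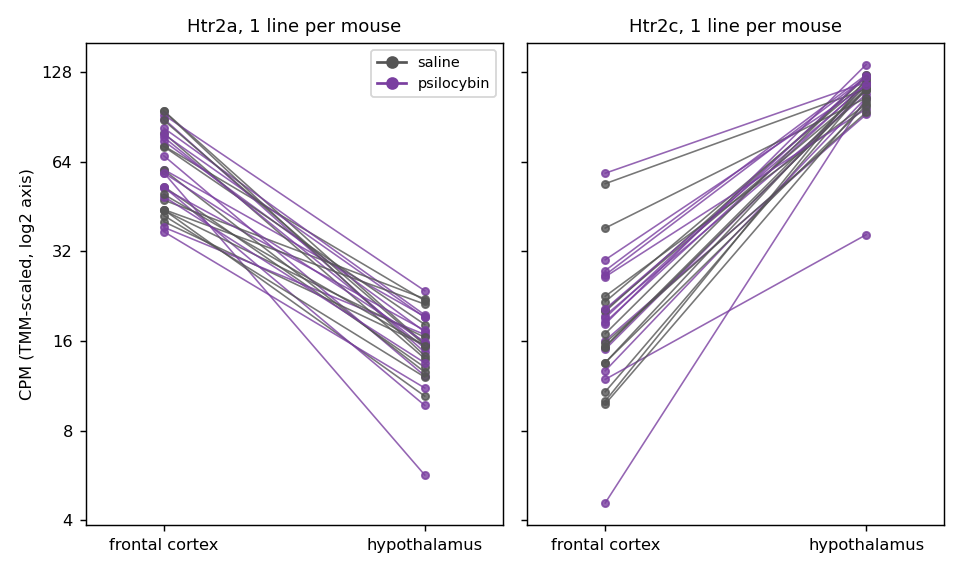
Levels of Htr2a (left) and Htr2c (right) in the frontal cortex and hypothalamus of the 30 mice with both libraries, in TMM-scaled CPM on a log2 axis, with 1 line per mouse in grey for saline and purple for psilocybin. All 30 lines fall from frontal cortex to hypothalamus for Htr2a and all 30 rise for Htr2c.

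Levels of different genes were compared per length. Divided by exonic length, frontal cortex had 11.3 ± 3.25 CPM per kilobase of Htr2a and 2.23 ± 1.25 CPM per kilobase of Htr2c (SD, n = 31 libraries). Hypothalamus had 2.78 ± 0.704 of Htr2a and 11.8 ± 1.86 of Htr2c in the same unit. The dominant receptor of each tissue thus stood at about the same per-length level, at the 77.2 percentile of the tested genes for Htr2a in frontal cortex and at the 78.9 percentile for Htr2c in hypothalamus, while the other receptor stood at the 42.7 percentile (Htr2c in frontal cortex) and the 46.8 percentile (Htr2a in hypothalamus).

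Since the libraries are bulk tissue, fewer cells of a type and less RNA per cell cannot be told apart in any of these differences. Markers of other cell types also differed between the regions. The summed level of the 12 choroid plexus genes had a median of 14.5 CPM in frontal cortex (range 5.66 to 58.2) and of 57.7 CPM in hypothalamus (range 33.4 to 1307), where saline replicate 3 at 4 weeks was the highest. Of these genes 10 of the 11 tested were lower in frontal cortex, and Ttr, the choroid plexus transthyretin gene, had a median of 8.47 CPM in hypothalamus. Across the 31 hypothalamus libraries, deviations of Htr2c from its group means did not go up with the choroid plexus sum (Pearson r = -0.193, permutation p = 0.23, adjusted p = 0.368 over 8 relations; Spearman rho = -0.354, permutation p = 0.045, adjusted p = 0.0816; r = -0.385 without the 2 libraries farthest from the median; r = -0.219 in pool A and -0.349 in B). In frontal cortex the same relation gave r = 0.0553 (permutation p = 0.78, adjusted p = 0.78; rho = 0.0520, permutation p = 0.79, adjusted p = 0.79). Of the 8 thalamic genes 7 were lower in frontal cortex, with median sums of 119.5 CPM there and 703 CPM in hypothalamus, and 11 of the 14 microglial, immune and wound healing genes were higher, with median sums of 429.8 and 190.3 CPM. The part of the other cell types in the regional difference was not tested.

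The genes around the receptors also had regional levels. A list of 36 genes of 5-HT2 signalling and serotonin handling held 34 tested genes, of which 20 were higher in frontal cortex, 10 were lower and 4 did not pass, where 76.2% of all 18971 tested genes passed, 7516 higher and 6931 lower. The median log2 difference of the list was 0.37 against 0.02 over all tested genes. The effectors of Gq signalling with the widest gaps were Itpr1, an IP3 receptor, at 1115 CPM in frontal cortex and 204 CPM in hypothalamus, and Prkcb, a protein kinase C, at 625.1 and 146 CPM (log2 differences 2.46 and 2.10). The kinase genes Prkca and Prkce were also higher in frontal cortex, by 1.76 and 1.18 on the log2 scale. The phospholipases went both ways: Plcb1 was higher in frontal cortex by 1.76 and Plcb2 by 1.18, Plcb4 was lower (log2 difference -0.86), and Plcb3 did not pass (-0.0044, adjusted p = 0.944, edgeR).

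Gnaq and Gna11, the widespread Gq family subunits, were each higher in frontal cortex by 0.38 on the log2 scale, and Gna14 was lower (-1.81) at means of 0.201 and 0.680 CPM. Among regulators of receptor signalling, the arrestin Arrb1 (0.60), the receptor kinases Grk2 (0.63), Grk5 (0.51), Grk3 (0.27) and Grk6 (0.16), and Rgs4 (1.68), which speeds the inactivation of G proteins, were higher in frontal cortex. Rgs2 was lower (-0.42), and the arrestin Arrb2 did not pass (-0.06, adjusted p = 0.292, edgeR). Dlg4, the postsynaptic scaffold PSD-95, was higher by 1.16 and the caveolin gene Cav1 by 0.51. Itpr3 (0.64) and the phospholipase A2 gene Pla2g4a (0.36) were higher as well, and Itpr2 (0.08) and Mpdz (0.04), a PDZ protein that binds 5-HT2C, did not pass.

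The editing enzymes, which act on the Htr2c pre-mRNA among other targets, were all lower in frontal cortex: Adar by -0.33, Adarb1 by -0.53 and Adarb2, which has no known editing activity of its own, by -0.28. Genes that clear serotonin were lower too, with the transporters Slc29a4 at -1.80 and Slc22a3 at -0.69 and the monoamine oxidases Maoa at -0.89 and Maob at -0.88. Tph2, the neuronal enzyme of serotonin synthesis, was higher by 1.20 at means of only 1.59 CPM in frontal cortex and 0.726 CPM in hypothalamus. The serotonin transporter gene Slc6a4, at 0.0518 and 0.200 CPM, did not pass the filter.

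The second comparison, the one the study was designed for, was psilocybin against saline. In frontal cortex at 3 h, Htr2a had a lowest, median and highest level of 37.3, 68.9 and 92.1 CPM after psilocybin and of 44.0, 55.0 and 94.8 CPM after saline. Its means were 68.8 ± 19.6 (SD, n = 8) and 60.7 ± 18.0 CPM (SD, n = 8). The groups overlapped over nearly their whole range, and the log2 difference was 0.15 (SE 0.156, adjusted p = 0.877, edgeR), with an approximate 95% interval for psilocybin over saline from 0.897-fold to 1.38-fold. With quality weights in limma, the kind of model the study used, the difference over the 62 libraries was 0.34 (adjusted p = 0.0705). Without psilocybin replicate 7 it was 0.23 (adjusted p = 0.536, edgeR), and without saline replicate 5, the saline library at 94.8 CPM, it was 0.34 (adjusted p = 0.416, edgeR), while without psilocybin replicate 5 it was 0.072, the lowest value with 1 library left out.

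Htr2c in the same tissue and harvest lay at 4.57, 19.0 and 27.6 CPM (lowest, median, highest) after psilocybin and at 9.82, 14.7 and 22.6 CPM after saline. Its log2 difference was 0.29 (SE 0.270, adjusted p = 0.860, edgeR), with an interval from 0.840-fold to 1.78-fold, and the lowest value was that of psilocybin replicate 7. Without that library the difference was 0.44 (adjusted p = 0.433, edgeR), and with limma it was 0.45 (adjusted p = 0.285). With the summed level of 10 striatal genes as a covariate it was 0.15 (adjusted p = 0.948, edgeR), and the median log2 difference of those genes in this comparison was 0.31, with 0 of 10 called. With 1 library left out it ran from 0.17 to 0.44. Neither receptor passed, in a comparison where 0.0105% of all tested genes did (2 of 18971, with 9 called by DESeq2 and 1232 by limma with quality weights).

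At 4 weeks in frontal cortex, Htr2a lay at 38.6, 58.8 and 79.3 CPM after psilocybin (n = 7) and at 40.3, 56.5 and 95.03 CPM after saline (n = 8). The log2 difference was -0.012 (SE 0.161, adjusted p = 1, edgeR), with an interval from 0.793-fold to 1.24-fold. Htr2c lay at 11.9, 19.2 and 58.6 CPM after psilocybin and at 13.5, 18.5 and 54.1 CPM after saline, and its log2 difference was 0.014 (SE 0.273, adjusted p = 1, edgeR). Replicate 6 was the highest library of both groups, and saline replicate 7 was also high, at 38.3 CPM. The difference was -0.31 without psilocybin replicate 6, 0.29 without saline replicate 6 and 0.12 without saline replicate 7, none of which passed. Of all tested genes 0% passed here by edgeR (456 at an unadjusted p under 0.05), while DESeq2 called 19 and limma with quality weights 0.

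**Figure D2:**
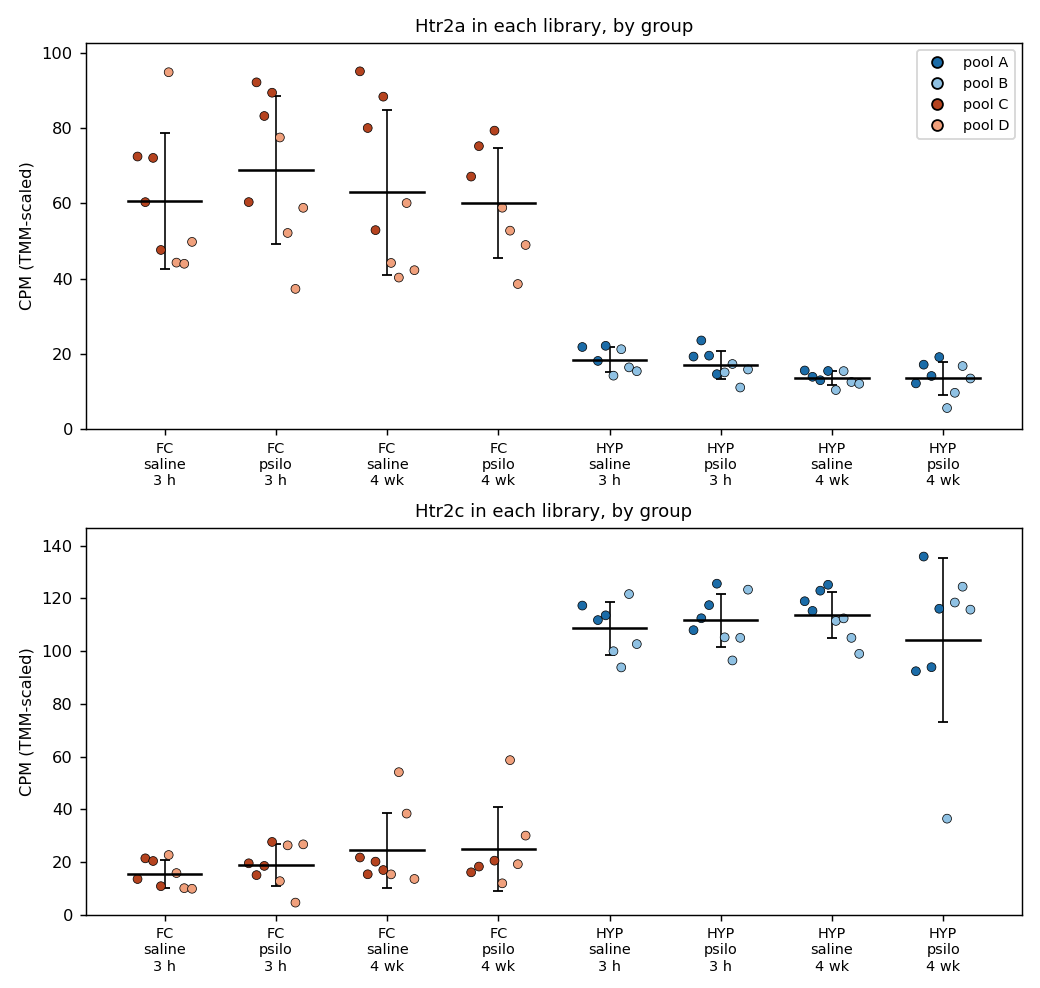
Htr2a (top) and Htr2c (bottom) in each of the 62 libraries, in TMM-scaled CPM, by group (FC, frontal cortex; HYP, hypothalamus; psilo, psilocybin). Points are libraries coloured by extraction pool, lines are group means and bars are SD. Psilocybin and saline groups of the same region and harvest overlap for both genes, and pools A and C lie mostly above B and D for Htr2a.

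In the hypothalamus at 3 h, Htr2a lay at 11.1, 16.6 and 23.6 CPM after psilocybin (n = 8) and at 14.3, 18.2 and 22.2 CPM after saline (n = 7). The log2 difference was -0.15 (SE 0.168, adjusted p = 1, edgeR), with an interval from 0.714-fold to 1.14-fold, and it ran from -0.20 to -0.080 with 1 library left out. Htr2c varied little among these libraries, from 96.5 to 125.6 CPM after psilocybin (median 110.2) and from 93.8 to 121.6 CPM after saline (median 111.8), with coefficients of variation of 8.92% and 9.27%. Its log2 difference was 0.03 (SE 0.262, adjusted p = 1, edgeR), with an interval from 0.710-fold to 1.47-fold. That SE rests on a dispersion shared by both regions, and Htr2c varied more in frontal cortex, so the interval is wider than the spread of these mice. With only the groups compared, the difference was 0.036 with SE 0.0583 (edgeR). With the summed striatal level as a covariate it was 0.17 (edgeR). Of all tested genes 0% passed by edgeR (337 at an unadjusted p under 0.05), and DESeq2 and limma with quality weights called 0 as well.

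At 4 weeks in the hypothalamus, Htr2a lay at 5.67, 13.8 and 19.2 CPM after psilocybin and at 10.4, 13.5 and 15.6 CPM after saline. Htr2c lay at 36.4, 115.9 and 135.9 CPM after psilocybin and at 99.0, 113.8 and 125.2 CPM after saline. The lowest psilocybin value of both genes came from replicate 5. The log2 differences were -0.022 for Htr2a (SE 0.167, adjusted p = 0.978, edgeR) and -0.13 for Htr2c (SE 0.253, adjusted p = 0.901, edgeR). Without replicate 5 they were 0.09 and 0.00082. With the summed striatal level as a covariate, the Htr2c difference was -0.25 (adjusted p = 0.712, edgeR). Here too 0% of all tested genes passed by edgeR (1823 at an unadjusted p under 0.05), with 13 called by DESeq2 and 0 by limma with quality weights. The approximate intervals of psilocybin over saline ran from 0.781-fold to 1.24-fold for Htr2a and from 0.644-fold to 1.301-fold for Htr2c.

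The signalling list gave no call by edgeR in any of the psilocybin comparisons. At an unadjusted p under 0.05 it had 1 gene in frontal cortex at 3 h, 0 at 4 weeks, 0 in hypothalamus at 3 h and 4 at 4 weeks, of 34 tested, where 7.23%, 2.40%, 1.78% and 9.61% of all tested genes were. DESeq2 called 0 in all of them, and limma with quality weights called 1 in frontal cortex at 3 h, where it called 6.49% of all tested genes, and 0 in the others. The list's median log2 differences, in the same order, were -0.03, -0.01, -0.03 and -0.09, against medians over all tested genes between -0.01 and 0.01.

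Whether the psilocybin difference itself changed with harvest or region was tested with interaction terms in the same edgeR fit. Between harvests (3 h minus 4 weeks), the psilocybin difference changed by 0.17 for Htr2a and 0.28 for Htr2c in frontal cortex, and by -0.13 and 0.16 in hypothalamus. Between regions (frontal cortex minus hypothalamus), it changed by 0.30 and 0.26 at 3 h and by 0.010 and 0.14 at 4 weeks. With 1 library left out in turn, the change between harvests in frontal cortex ran from 0.079 to 0.34 for Htr2a and from 0.0054 (without saline replicate 6 at 4 weeks) to 0.60 (without psilocybin replicate 6 at 4 weeks) for Htr2c. For Htr2c it was 0.44 without psilocybin replicate 7 of the frontal cortex at 3 h. In hypothalamus it ran from -0.24 (without psilocybin replicate 5 at 4 weeks) to -0.046 for Htr2a and from 0.034 (without the same library) to 0.21 for Htr2c. Between regions it ran from 0.22 to 0.49 for Htr2a and from 0.14 to 0.41 (without psilocybin replicate 7 of the frontal cortex) for Htr2c at 3 h. At 4 weeks it crossed 0, from -0.11 (without psilocybin replicate 5 of the hypothalamus) to 0.095 for Htr2a and from -0.18 to 0.42 for Htr2c, without psilocybin and without saline replicate 6 of the frontal cortex. For Htr2c it was 0.013 without psilocybin replicate 5 of the hypothalamus. Limma with quality weights gave 0.38, -0.31, 0.50 and -0.20 for Htr2a and 0.23, -0.023, 0.43 and 0.17 for Htr2c in the order above, with a lowest adjusted p of 0.123. With the summed striatal level as a covariate, the Htr2c change between harvests was 0.018 in frontal cortex and 0.43 in hypothalamus. None of the 8 values passed, with adjusted p-values from 0.926 to 1 (edgeR). Across all genes 0% passed in each of the 4 interactions by edgeR, with 585, 999, 528 and 1269 genes at an unadjusted p under 0.05. DESeq2 called 4, 0, 0 and 64 genes and limma with quality weights 1, 0, 8 and 0, in the same order.

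**Figure D3:**
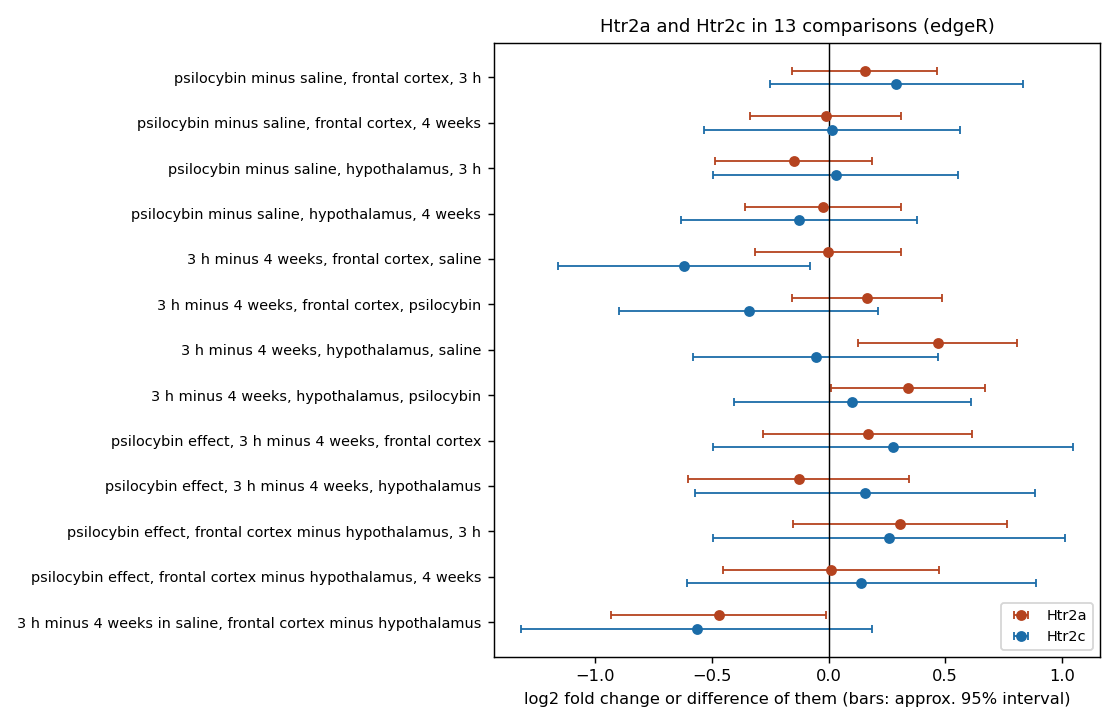
Log2 fold changes, or differences of log2 fold changes, of Htr2a (red) and Htr2c (blue) in 13 comparisons within and between groups, from edgeR, with approximate 95% intervals. The 8 intervals of psilocybin against saline all include 0, and for Htr2a the intervals of 3 h against 4 weeks in hypothalamus lie above 0 before adjustment for the number of genes, while those of Htr2c in saline frontal cortex and of the regional difference of Htr2a in the saline harvest comparison lie below 0.

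The third comparison was between harvests, separately in saline and psilocybin mice. These comparisons share their groups with those above. In hypothalamus, Htr2a of saline mice averaged 18.5 ± 3.27 CPM at 3 h (SD, n = 7) and 13.6 ± 1.89 CPM at 4 weeks (SD, n = 8), and the groups overlapped only between 14.3 and 15.6 CPM. The log2 difference was 0.47 (SE 0.170, adjusted p = 0.298, edgeR), or 1.38-fold with an approximate 95% interval from 1.09 to 1.75. It did not pass after adjustment, in a comparison where 0.685% of all tested genes did. The size hardly moved with the method and the call did: limma with quality weights gave 0.46 (adjusted p = 0.0116) and edgeR with only these 2 groups gave 0.45 (adjusted p = 0.0101), and the adjusted p of the other 8 settings lay between 0.249 (DESeq2) and 0.634 (no pool term). Within pool A the means were 20.7 and 14.5 CPM, and within pool B they were 16.9 and 12.7 CPM.

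In psilocybin mice the hypothalamic Htr2a means were 17.1 ± 3.79 CPM at 3 h and 13.6 ± 4.39 CPM at 4 weeks (SD, n = 8 each), with a log2 difference of 0.34 (SE 0.165, adjusted p = 0.275, edgeR), which was 0.22 without replicate 5 of the 4 week group and 0.14 with limma and quality weights (adjusted p = 0.628). Of all tested genes 1.16% passed in this comparison. Htr2c in hypothalamus gave log2 differences of -0.05 in saline mice (SE 0.262, adjusted p = 0.997, edgeR) and 0.10 in psilocybin mice (SE 0.253, adjusted p = 0.864, edgeR). Without replicate 5 the latter was -0.026. With the summed striatal level as a covariate, the saline and psilocybin values were -0.17 (adjusted p = 0.958, edgeR) and 0.26 (adjusted p = 0.529, edgeR). With only the groups compared they were -0.070 (SE 0.0487) and 0.091 (SE 0.180). No gene of the signalling list passed in either hypothalamic comparison by edgeR or DESeq2, with 3 and 4 of 34 at an unadjusted p under 0.05, as were 8.09% and 17.4% of all tested genes. Limma with quality weights called 2 of the list in saline mice and 0 in psilocybin mice, and 7.25% and 3.29% of all tested genes.

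In frontal cortex, the log2 difference of Htr2a, 3 h minus 4 weeks, was -0.0027 in saline mice (SE 0.156, adjusted p = 0.996, edgeR), -0.20 with limma (adjusted p = 0.327) and -0.18 without saline replicate 5 at 3 h (adjusted p = 0.475, edgeR). It was 0.16 in psilocybin mice (SE 0.161, adjusted p = 0.601, edgeR) and ran there from 0.081 to 0.24 with 1 library left out. Htr2c averaged 15.5 ± 5.30 CPM at 3 h and 24.4 ± 14.3 CPM at 4 weeks in saline mice (SD, n = 8 each), a log2 difference of -0.62 (SE 0.270, adjusted p = 0.196, edgeR). In psilocybin mice the means were 18.9 ± 8.02 (n = 8) and 24.9 ± 15.9 CPM (n = 7), a log2 difference of -0.34 (SE 0.277, adjusted p = 0.513, edgeR). Of all tested genes 4.72% passed in saline mice and 5.96% in psilocybin mice.

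The higher Htr2c means at 4 weeks came with 3 libraries of pool D. Saline replicates 6 and 7 had 54.1 and 38.3 CPM of Htr2c, and psilocybin replicate 6 had 58.6 CPM. The same libraries had 2211, 949 and 1010 summed CPM of 10 striatal genes (Drd1 first among them), where the median of the 31 frontal cortex libraries was 329 CPM. Without saline replicate 6 the saline difference was -0.37, and without psilocybin replicate 6 the psilocybin difference was -0.031. Without psilocybin replicate 7 at 3 h, the lowest library of that group, the psilocybin difference was -0.17. With the summed striatal level as a covariate the saline difference was -0.34 (adjusted p = 0.491, edgeR) and the psilocybin difference was -0.32 (adjusted p = 0.444, edgeR), close to its value without the covariate. The 3 h groups also reached striatal sums of 908 CPM (psilocybin) and 800 CPM (saline), with Htr2c at no more than 27.6 and 22.6 CPM. No striatal gene was called between harvests (0 of 10 in saline and in psilocybin mice, edgeR), with list medians of -0.72 and 0.16. Of the 12 hypothalamic genes, 3 were called lower at 3 h in saline mice (median log2 difference -0.90) and 0 in psilocybin mice (-0.55), at summed levels between 102 and 231 CPM in this tissue, and 1 of the 14 microglial, immune and wound healing genes was called higher at 3 h in each. In frontal cortex 10 of these 12 hypothalamic genes had a mean under 1 CPM. Their median differences thus rest on few reads, and the sums rest on the remaining genes. The part of the hypothalamic and immune genes in the Htr2c differences was not tested.

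Across all 31 frontal cortex libraries, deviations of Htr2c from its group means went together with those of the striatal sum (Pearson r = 0.615, permutation p = 0.00055, adjusted p = 0.0044 over 8 relations; Spearman rho = 0.420, permutation p = 0.022, adjusted p = 0.0587). Without the 2 libraries farthest from the median, r was 0.426. Within pools, r was 0.389 in C and 0.678 in D, and with pool means removed it was 0.675. For Htr2a the same relation had the opposite sign (r = -0.421, permutation p = 0.03, adjusted p = 0.08; rho = -0.500, permutation p = 0.0065, adjusted p = 0.052) and was -0.186 with pool means removed, with 0.0998 in C and -0.177 in D. In hypothalamus, the striatal sum gave r = 0.339 with Htr2a (permutation p = 0.12, adjusted p = 0.24; rho = 0.484, permutation p = 0.014, adjusted p = 0.056; r = 0.370 without the 2 farthest libraries, 0.621 in pool A and 0.571 in B). With Htr2c it gave r = 0.0906 (permutation p = 0.73, adjusted p = 0.78; rho = 0.135, permutation p = 0.51, adjusted p = 0.583), with 0.705 in pool A and 0.122 in B, which holds psilocybin replicate 5 at 4 weeks.

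**Figure D4:**
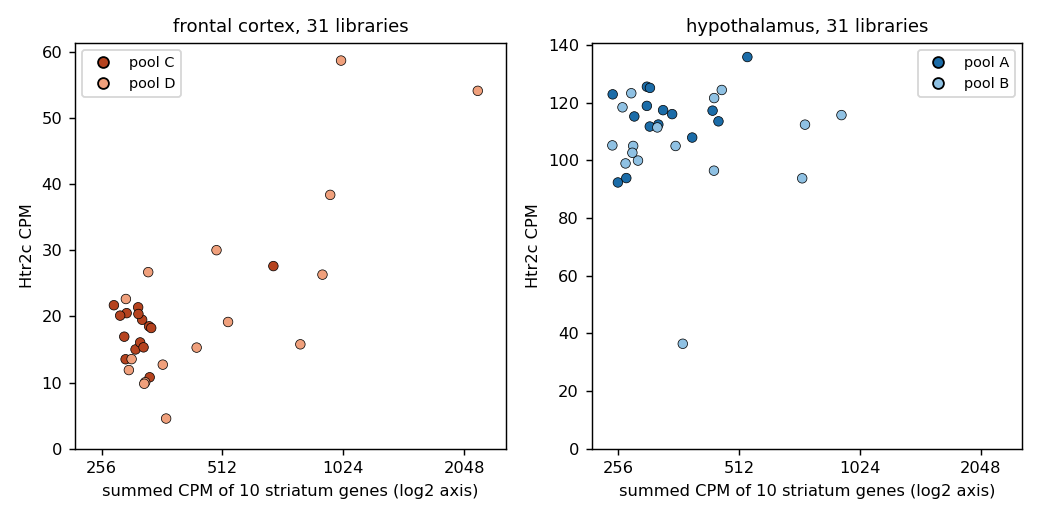
Htr2c (TMM-scaled CPM) against the summed level of 10 striatal genes (log2 axis) in the frontal cortex (left) and hypothalamus (right) libraries, coloured by extraction pool. In frontal cortex the libraries with 54.1 and 58.6 CPM of Htr2c have striatal sums of 2211 and 1010 CPM, and in hypothalamus psilocybin replicate 5 at 4 weeks stands alone at 36.4 CPM.

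Between harvests in frontal cortex, the signalling list was called about as often as all tested genes, of which 4.72% passed in saline and 5.96% in psilocybin mice. Gna11 (0.20, adjusted p = 0.0158) and Grk2 (0.24, adjusted p = 0.0269) were higher at 3 h in saline mice (edgeR), 2 of 34. In psilocybin mice 3 of 34 passed, Gna11 (0.18, adjusted p = 0.0438), Rgs2 (0.27, adjusted p = 0.0488) and Slc29a4, which encodes a low-affinity monoamine transporter (0.53, adjusted p = 0.0130). Gna11 is the one gene that passed in both. These calls depended on the setting: the list had 0 calls in saline mice with no filter, with all 64 libraries or with only the groups compared, and 1 call in psilocybin mice in 5 of the 10 other settings. The difference between the regions in the saline harvest comparison was -0.47 for Htr2a (adjusted p = 0.846, edgeR) and -0.56 for Htr2c (adjusted p = 0.977, edgeR; -0.32 without saline replicate 6 of the frontal cortex at 4 weeks), and limma with quality weights gave -0.66 (adjusted p = 0.0827) and -0.41 (adjusted p = 0.594), where 0.0369% of all tested genes passed by edgeR (7 of 18971).

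The balance of the receptors was then measured as the log2 ratio of Htr2a to Htr2c counts per kilobase within each library, which does not depend on the scaling between libraries. It was above 0 in every frontal cortex library, from 0.31 to 3.76, and below 0 in every hypothalamus library, from -2.87 to -1.41. Within mice the regions differed by 4.72 and 4.39 after psilocybin (3 h and 4 weeks) and by 4.62 and 4.53 after saline. Each exact sign-flip p, 0.0078125 with 8 mice and 0.015625 with 7, is the smallest that the number of mice allows (two-sided; adjusted p = 0.03125 and 0.0375 over 12 comparisons). Neighbouring conditions within a region overlapped.

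In hypothalamus of saline mice the mean ratio was -1.83 ± 0.27 at 3 h (SD, n = 7, from -2.15 to -1.41) and -2.34 ± 0.18 at 4 weeks (SD, n = 8, from -2.68 to -2.13). The ranges overlapped only between -2.15 and -2.13, and the difference of 0.51 passed an exact two-sided permutation test (p = 0.0003108, adjusted p = 0.0037296 over 12 comparisons, smallest possible p 0.0001554). The difference was 0.59 within pool A and 0.45 within pool B, and with each library left out in turn it stayed between 0.44 and 0.56 with adjusted p-values up to 0.0140 (exact permutation). Psilocybin mice had -2.00 ± 0.34 at 3 h and -2.20 ± 0.32 at 4 weeks (SD, n = 8 each), a difference of 0.20 (exact permutation p = 0.244, adjusted p = 0.366), which ran from 0.11 to 0.27 with 1 library left out. Markers of other tissue had different median sums in these saline groups, over ranges that overlapped. The striatal sum had a median of 440 CPM at 3 h (range 278 to 736) and 305 CPM at 4 weeks (range 248 to 748), and the choroid plexus sum had 52.5 CPM (range 41.1 to 111.2) and 60.3 CPM (range 43.1 to 1307). No gene of either list passed (0 of 10 and 0 of 11, edgeR), and their median log2 differences were 0.30 and -1.12. For Htr2a itself, the harvest difference was 0.46 with the striatal sum as a covariate and 0.39 with the choroid plexus sum; their part in the ratio was not tested. Whether the saline and psilocybin differences in this ratio differ from each other was not tested.

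No psilocybin difference in the ratio passed. It was -0.0038 in frontal cortex at 3 h, -0.04 at 4 weeks, -0.17 in hypothalamus at 3 h and 0.14 at 4 weeks, with adjusted exact permutation p-values of 0.990, 0.990, 0.374 and 0.374, and the hypothalamic values ran from -0.24 to -0.097 and from 0.087 to 0.23 with 1 library left out. The harvest differences of 0.53 and 0.57 in frontal cortex of saline and psilocybin mice did not pass either (adjusted exact permutation p = 0.351 and 0.358). With 1 library left out they ran from 0.26 to 0.66 and from 0.30 to 0.71, lowest without replicate 6 of the respective 4 week group. Within pool C they were -0.10 and 0.0088, and within pool D, which holds the libraries with high striatal sums, they were 1.16 and 0.97.

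**Figure D5:**
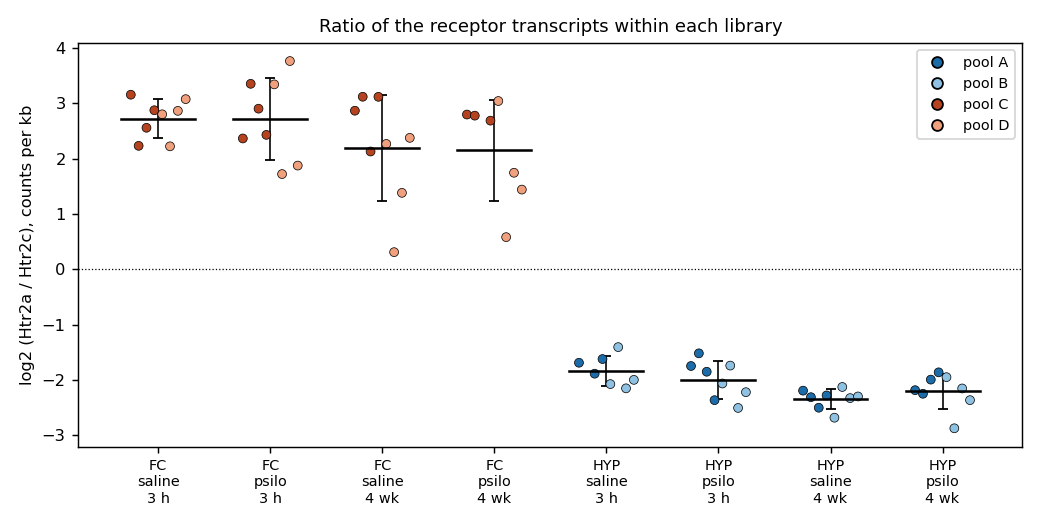
Log2 ratio of Htr2a to Htr2c, each in counts per kilobase, within each library by group, coloured by extraction pool, with group means (lines) and SD (bars). Frontal cortex libraries lie above 0 and hypothalamus libraries below, and hypothalamic saline libraries average -1.83 at 3 h and -2.34 at 4 weeks.

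The extraction pool, which the fits carry as a term, moved with Htr2a in both regions. This comparison was added after the levels had been seen. In frontal cortex, Htr2a averaged 74.3 ± 14.5 CPM in pool C (SD, n = 15) and 52.8 ± 15.2 CPM in pool D (SD, n = 16), and the pool C mean was the higher in 4 of 4 groups, by 1.084-fold to 1.69-fold. The fitted log2 difference was 0.49 (SE 0.112, adjusted p = 0.00109, edgeR), where 24.9% of all tested genes passed. In hypothalamus, pool A averaged 17.4 ± 3.54 CPM (SD, n = 15) and pool B 14.0 ± 3.67 CPM (SD, n = 16), again higher in 4 of 4 groups, and the log2 difference was 0.34 (SE 0.119, adjusted p = 0.0371, edgeR), where 17.4% of all tested genes passed. That call was kept with 21 of 31 libraries left out singly and lost with the other 10, among them psilocybin replicate 5 at 4 weeks (0.29, adjusted p = 0.0840, edgeR). Pools A and C hold cages 1 to 4, so pool and cage cannot be told apart.

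Htr2c did not pass in either pool comparison, with -0.24 for C minus D (adjusted p = 0.385, edgeR) and 0.14 for A minus B (adjusted p = 0.617, edgeR). The former was -0.11 without saline replicate 6 and -0.12 without psilocybin replicate 6 of the 4 week groups, and the latter was 0.077 without psilocybin replicate 5 at 4 weeks. Cell type markers moved with the frontal cortex pools, between which 24.9% of all tested genes passed. The choroid plexus sum had a median of 8.54 CPM in pool C and 19.4 CPM in pool D, with 3 of 11 genes lower in C. The cortical excitatory sum had a median of 2285 CPM in pool C (range 1951 to 2447) and 1914 CPM in pool D (range 1747 to 2457), with 5 of 10 genes higher in C and 0 lower. The striatal sum had 316 CPM in C (range 275 to 685) and 406 CPM in D (range 294 to 2211), with 8 of 10 genes lower in C, and the sum of 14 microglial, immune and wound healing genes had 301 CPM in C and 468 CPM in D, with 11 of 14 lower in C. In hypothalamus the microglial, immune and wound healing sum had a median of 159 CPM in A and 210 CPM in B, with 6 of 14 genes lower in A, and of the 12 hypothalamic genes 2 were higher and 4 lower in A. Their part in the Htr2a differences was not tested.

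Of the signalling list, 14 of 34 genes passed between pools C and D, where 24.9% of all tested genes did. Gnaq (0.20), Plcb4 (0.26), Prkca (0.17), Prkce (0.19) and Rgs4 (0.27) were higher in C, and Gna11 (-0.13), Plcb3 (-0.44), Itpr2 (-0.33), Itpr3 (-0.38), Pla2g4a (-0.54), Cav1 (-0.32), Slc22a3 (-0.30), Slc29a4 (-0.26) and Maob (-0.29) were lower (edgeR). Between A and B in hypothalamus, where 17.4% of all tested genes passed, 3 of 34 did: Adar was higher in A (0.26) and Tph2 (-0.85) and Maob (-0.29) were lower.

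Last, the genes whose levels followed each receptor most closely from library to library were listed, from deviations of log2 CPM from group and pool means over the 31 libraries of a region, among genes with a mean of at least 5 CPM. The values are descriptions, since all genes of a library share its depth and dissection. In frontal cortex, Htr2a went with Atrnl1 (Pearson r = 0.913), the calcium pump gene Atp2b1 (0.908), the AMPA receptor subunit gene Gria3 (0.897), the cadherin gene Cdh10 (0.886) and Sorbs2 (0.879), among 11917 genes. These were 0.876, 0.868, 0.853, 0.832 and 0.836 without saline replicate 5 at 3 h, the library farthest from its expected Htr2a level. Htr2c in frontal cortex went with the LIM-only gene Lmo3 (0.922), Sh3kbp1 (0.897), Ric8b (0.870), the transcription factor gene Bcl11b (0.857) and Klhl13 (0.853), which were between 0.793 and 0.904 without psilocybin replicate 7 at 3 h. The sets of 5 genes had no member in common, and sets of 5 drawn from 11917 genes rarely share any.

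In hypothalamus, the closest genes were Gria2 (0.862), Pde8b (0.862), Dlgap2 (0.851), Zswim5 (0.850) and Gas7 (0.849) for Htr2a and Efr3b (0.953), Sphkap (0.953), Cadps (0.948), St8sia1 (0.946) and Tppp (0.946) for Htr2c, among 12100 genes. Psilocybin replicate 5 at 4 weeks was the farthest library for both, and without it the values lay between 0.744 and 0.782 for Htr2a and between 0.807 and 0.847 for Htr2c. The receptors themselves went together in hypothalamus (Pearson r = 0.674, permutation p = 0.012, adjusted p = 0.048; Spearman rho = 0.383, permutation p = 0.051, adjusted p = 0.0816), with r = 0.356 in pool A, 0.707 in B and 0.327 without the 2 libraries farthest from the median, so that this relation rests on those libraries. In frontal cortex their r was 0.163 (permutation p = 0.41, adjusted p = 0.547; rho = 0.201, permutation p = 0.3, adjusted p = 0.4).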

How the data were processed

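The authors made stranded poly-A libraries, sequenced them as paired ends and, per the submitters' processing notes, used bcl2fastq 2.20.0, STAR 2.7.2b on GRCm38 and featureCounts 1.6.2, and deposited raw counts per gene, with no normalization. Libraries with at least 1000000 counts were kept. The study also excluded 1 library rich in wound healing and immune genes; which one is not given in the sources used here, so it was kept, except where each library was left out in turn. Low counts were removed by edgeR's filterByExpr (10 counts, by group), and the 18971 remaining genes were scaled by TMM and fitted with edgeR 4.0.16 (robust quasi-likelihood, R 4.3.3) on group and extraction pool, with all 8 groups in 1 fit. The dispersion of a gene is thus shared by both regions, and its SE and interval do not measure the spread of the compared groups alone. An adjusted p under 0.05 was called. The approximate 95% intervals use the total degrees of freedom of that fit's test, residual plus prior. CPM is TMM-scaled throughout, and the low values carry the counting error of few reads (Htr2a 111 to 3694 counts, Htr2c 67 to 4365). The ratio was tested by exact permutation over libraries or sign flips over mice, and correlations by 100000 permutations within groups.

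Group, cage and extraction pool came from the labels. The cage number is the replicate number, so it pairs libraries by cage within a region and by mouse between regions. Deviations from group means correlated at 0.0806 on average between libraries of the same cage in frontal cortex and 0.0723 in hypothalamus, and at 0.0865 between the regions of 1 mouse, against -0.0423, -0.0385 and -0.0159 for other pairs. With the pool removed, same-cage values were -0.0415 and -0.0236. No libraries of a group were identical. Within a group, each library came from a different mouse and a different cage. Each mouse gave both regions, and the main edgeR fit has no animal or cage term, so it treats the regions of a mouse as independent. With the animal as a replicate block, the regional differences were 2.00 for Htr2a (adjusted p = 8.92e-20, edgeR) and -2.55 for Htr2c (adjusted p = 8.65e-18, edgeR).

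The receptors, the lists and the tests were chosen with earlier results of these data known. Named genes are both receptors, list members that pass in a comparison described, the 5 genes most like each receptor per region, and the first gene of a marker list; 1 list member is counted with the list but not reported here by name. In the comparison of regions, list members that did not pass are named as well, and Htr2b and Slc6a4 to account for the list, chosen after their values were seen. Alternatives were RLE size factors, no filter, no pool, cage or animal as a replicate block, all 64 libraries, striatal or choroid plexus covariates, only the groups compared, DESeq2 1.42.0, voom with quality weights in limma 3.58.1 (the study's model, with the animal as a block) and each library left out. The pool comparisons and the values without single low-weight libraries were added after seeing the data. The scripts were tested on simulated data.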

Additional observations from a re-analysis of the deposited data

Results flagged for a closer look

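In 24 groups of 7 or 8 libraries (8 groups for each of Htr2a, Htr2c and their ratio), 2 libraries lay far from the others of their group, where chance gives about 1 in 20 groups. Htr2c was 58.6351 CPM in psilocybin replicate 6 of the frontal cortex at 4 weeks, with the next highest library of the group at 29.998 CPM; its striatal sum was 1010 CPM. Htr2c was 36.4269 CPM in psilocybin replicate 5 of the hypothalamus at 4 weeks, with the next lowest at 92.4 CPM. That library had 5.67 CPM of Htr2a, also the lowest of the region, 27490537 counts in all, and 3255 summed CPM of the 12 hypothalamic markers, with a regional median of 734 CPM.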

How the results depend on the processing

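The regional differences of both receptors were called in 8 of 8 other settings and with each of 62 libraries left out, Htr2a from 1.95 to 2.03 and Htr2c from -2.55 to -2.39 on the log2 scale. No psilocybin or interaction value of a receptor was called in any setting. For Htr2a in saline hypothalamus (3 h minus 4 weeks), limma with quality weights (0.457) and only the groups compared (0.450) made the call; the cause was not tested. Htr2a between pools A and B lost the call with no filter (0.309) and with all 64 libraries (0.345), and between 0.286 and 0.387 with 1 library left out: the call was lost in 10 of 31, namely psilocybin 3 h replicates 2 and 7, saline 3 h 1, 4 and 5, psilocybin 4 weeks 2, 4, 5 and 6, and saline 4 weeks 5. Between pools C and D it was called in 6 of 6 settings and 31 of 31 left out.

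Values near 0 changed sign and passed no test; the cause was not tested. With limma these were 0.156 (Htr2a) and 0.0497 (Htr2c) for psilocybin in hypothalamus at 4 weeks, -0.0769 for Htr2c between harvests in psilocybin hypothalamus, -0.0226 for its interaction there and -0.201 for the Htr2a interaction of psilocybin and region at 4 weeks, which was -0.0588 with no pool and -0.0185 with the cage as replicate block. The cage as replicate block changed no call of a receptor; over all genes it moved 1 count by more than 1.5 times, to 3 for the regional difference in saline mice between harvests. For psilocybin in frontal cortex at 4 weeks, Htr2a was 0.0593 with all 64 libraries and 0.0100 with only the groups compared, and Htr2c -0.0247 with the latter. Htr2a between harvests in saline frontal cortex was 0.000622 (all 64), 0.0115 (striatal covariate) and 0.00126 (DESeq2).

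With 1 library left out, the values that changed sign ran as follows. For psilocybin, Htr2a ran from -0.0614 to 0.0542 (frontal cortex, 4 weeks) and from -0.107 to 0.0949 (hypothalamus, 4 weeks), and Htr2c from -0.312 to 0.288, from -0.183 to 0.000818 and, in hypothalamus at 3 h, from -0.00600 to 0.0705. Between harvests, Htr2a in saline frontal cortex ran from -0.181 to 0.0731 and Htr2c in psilocybin hypothalamus from -0.0262 to 0.159. The interaction of psilocybin and region at 4 weeks ran from -0.106 to 0.0949 (Htr2a) and from -0.184 to 0.415 (Htr2c). The ratio after psilocybin in frontal cortex ran from -0.153 to 0.139 at 3 h and from -0.312 to 0.219 at 4 weeks.

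Counts of called list genes depended on the setting. For psilocybin in frontal cortex at 3 h limma gave 1. Between harvests, saline frontal cortex gave 0 with no filter, all 64 libraries or only the groups compared; psilocybin frontal cortex gave 1 with RLE, no filter, no pool, all 64 or only the groups compared and 8 with limma; saline hypothalamus gave 2 with limma and 1 with only the groups compared; psilocybin hypothalamus gave 1 with no filter. Pools C and D gave 8 with no filter and 24 with limma, and A and B 1 with no filter or all 64, 9 with limma and 5 with only the groups compared. Correlations of Htr2a with Htr2c without the 2 farthest libraries were -0.0985 in frontal cortex and 0.327 in hypothalamus, those of Htr2c 0.426 with the striatal sum in frontal cortex and -0.385 with the choroid plexus sum in hypothalamus, and with pool means removed Htr2a and the striatal sum gave -0.186 and 0.540.

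Over all genes, calls ranged over the settings from 552 to 3614 (1131 as reported) and from 310 to 1146 (896) between harvests in psilocybin and saline frontal cortex, from 31 to 624 (220) and 53 to 1375 (130) in hypothalamus, from 2 to 25 (7) for the regional difference between harvests in saline mice, from 3375 to 8596 (4721) and 2106 to 6606 (3294) between pools, and from 0 to 1232 (2) for psilocybin in frontal cortex at 3 h, the highest with limma. The fewest reads behind a receptor value were 67 counts of Htr2c, in psilocybin replicate 7 of the frontal cortex at 3 h, and Htr2b had too few to be tested.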

Other observations

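The libraries left out for low totals had few reads on the receptors. Saline replicate 2 of the hypothalamus at 3 h (211111 counts) had 6 counts of Htr2a and 30 of Htr2c, or 28.4 (exact Poisson 95% interval 10.4 to 61.9) and 142.1 (95.9 to 202.9) CPM without TMM scaling. Psilocybin replicate 3 of the frontal cortex at 4 weeks (200066 counts) had 25 counts of Htr2a and 1 of Htr2c, or 125.0 (80.9 to 184.5) and 5.00 (0.127 to 27.8) CPM. The intervals cover counting error only. Htr2a was the more abundant receptor in the frontal cortex library and Htr2c in the hypothalamus library.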
